A study of Homo sapiens with 8 samples.

Results

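Metallothioneins are small cysteine-rich proteins that bind zinc and copper, buffer the free level of these metals in the cell and take up cadmium. MTF1 is a zinc finger transcription factor that senses zinc and drives metallothionein genes and SLC30A1 through metal response elements in their promoters, and SLC30A1 is the zinc exporter of the plasma membrane. Metallothionein genes are also known for their response to glucocorticoids and oxidative stress. The 8 genes described here were taken by symbol, 8 of the 58440 genes in the table: the metallothioneins MT1E, MT1F, MT1G, MT1M, MT1X and MT2A, with MTF1 and SLC30A1. Of these 8, 3 passed the filter on low counts and were tested: MT2A, MTF1 and SLC30A1.

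Messenger RNA was counted in 8 samples of HEK293, a human embryonic kidney cell line. The labels give 2 genotypes, a line stably carrying HTR1E, which encodes a serotonin receptor, and control HEK293 cells, each with 2 samples without added ligand and 2 after serotonin. All samples carry the same protocol note: 3 h without serum, then 1 µM serotonin for 1 h. The 4 samples without ligand are those whose labels say that none was added, although they carry the serotonin step in that note too. The labels do not say whether the HTR1E line is a single clone, or whether samples of a group came from separate cultures, so p-values measure only the spread between these samples.

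The columns of counts are named by treatment and by the letter A or B, and 1 column of each pair has a trailing R. Values of a pair are given with the plain column first and the R column second. No label ties a letter to a genotype, so columns are called A or B here, by the first letter, and a difference between A and B is one between columns so named. HTR1E was counted 1643 and 1836 times in the pair of A columns without ligand, and 1783 and 1353 times in the pair of A columns after serotonin. In the B columns its count was 0 and 0 without ligand, and 2 and 3 after serotonin. Total counts ran from 2604885 to 9072278 read pairs per column. The plain no-ligand B column was the shallowest and had 54.4% of its counts on mitochondrial genes. The serotonin B column with R had 36.3%, and the other 6 columns had 17.9 to 24.6%. Values without these 2 columns, a choice made after seeing the data, are given beside the results they moved most. Of the HEK293 markers, VIM, KRT8, KRT18 and NEFL had at least 60 counts in every column. PAX2 had 7 to 129 counts and NEFM 1 to 53. PTPRC was at 0 in all columns, and CD74, PECAM1, CDH5, ALB, APOA1 and DCN had at most 9 counts in any column. COL1A1, listed as a fibroblast gene, had 21 to 321. Among these markers, COL1A1 was called higher in A than in B without ligand and PAX2 lower in A after serotonin (edgeR, adjusted p = 0.0487 and 0.0422), and their part in the results was not tested.

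The 6 metallothioneins lie in 1 cluster on chromosome 16 of GRCh38: MT2A at chr16:56608199-56609497, MT1E at chr16:56625475-56627112, MT1M at chr16:56632233-56633986, MT1F at chr16:56657694-56660698 and MT1X at chr16:56682424-56684196 on the plus strand, and MT1G at chr16:56666731-56668065 on the minus strand. MTF1 (chr1:37809567-37859620) and SLC30A1 (chr1:211571568-211578742) are both on the minus strand of chromosome 1. Reads were counted over all exons of each gene.

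The upstream sequences of MT2A and MT1X are shown because both carry matches to the core of the metal response element, while their counts differed widely (213 read pairs in all for MT2A and 9 for MT1X). RefSeq's table of promoters (GRCh38.p14) held 4 of the 8 genes, MT2A, MT1X, MTF1 and SLC30A1. The 250 bases before each start were searched for TGCACNC or TGCGCNC, which are 7 bases long, on both strands, counting overlapping matches. The matches are in capitals, and on the minus strand they read as the reverse complement. The window of MT2A lies at chr16:56608334-56608583 and that of MT1X at chr16:56682220-56682469, both on the plus strand. Both windows end at RefSeq's start of the gene, which lies inside the longer gene span that the count table gives. For SLC30A1 the window (chr1:211579162-211579411) lies upstream of the counted span, which ends at 211578742, and does not adjoin it.

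MT2A: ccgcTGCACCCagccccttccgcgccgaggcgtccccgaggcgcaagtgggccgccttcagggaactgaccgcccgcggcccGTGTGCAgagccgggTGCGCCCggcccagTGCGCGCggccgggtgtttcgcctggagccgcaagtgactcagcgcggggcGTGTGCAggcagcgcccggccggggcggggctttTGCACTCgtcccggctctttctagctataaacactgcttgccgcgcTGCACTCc

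MT1X: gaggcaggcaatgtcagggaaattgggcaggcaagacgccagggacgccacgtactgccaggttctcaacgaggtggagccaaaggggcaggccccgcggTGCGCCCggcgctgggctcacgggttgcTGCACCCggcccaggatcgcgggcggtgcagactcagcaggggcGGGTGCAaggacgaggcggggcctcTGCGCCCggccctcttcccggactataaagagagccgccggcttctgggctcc

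MT2A had 7 matches, 5 on the plus and 2 on the minus strand, and MT1X had 4, 3 on the plus and 1 on the minus strand. SLC30A1 had 1 match, on the strand opposite to the gene, and MTF1 had 0. Of the 35116 promoters in the table, 24.8% had at least 1 match in a window of this length, 1.58% had at least 3 and 0.0513% had at least 6. A match is a description of letters and not a measured binding site.

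Most metallothionein genes gave almost no read pairs in any column. MT1G and MT1M had 0 counts in all 8 columns, which allows a level of up to 0.0535 CPM (counts scaled to a common library size) over the 56045054 pairs of the table, and 0.331 to 1.15 CPM in a single column. MT1E had 1 count, in the plain no-ligand B column. A count limit of this kind covers counting error only. The 7 other metallothionein genes of the annotation were as low: MT1A, MT1B, MT1H, MT1HL1 and MT1L had 0 counts, MT3, the form known from brain, had 2, and MT4, the form of stratified epithelium, had 1.

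MT1F had 13 counts in all. Its counts in the pair of A columns were 0 and 5 without ligand and 1 and 2 after serotonin, and in the pair of B columns they were 0 and 4 without ligand and 1 and 0 after serotonin. No group stood apart, and single counts cannot order the columns. MT1X had 9 counts in all, 1 and 0 in the pair of A columns without ligand, 0 and 0 in the pair of A columns after serotonin, 0 and 4 in the pair of B columns without ligand, and 1 and 3 in the pair of B columns after serotonin. Its B columns held 8 of the 9 counts, too few for a test.

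MT2A, the most widely expressed metallothionein in human tissues, held nearly all of the family's reads. Over the table, 213 of the 239 counts on the 13 metallothionein genes were on MT2A, a share of 89.1% (95% Clopper-Pearson interval 84.5 to 92.8%). Even so it was a low gene, with a median of 2.76 CPM over the 8 columns. Scaled per kilobase of its exons, MT2A averaged 2.67 FPKM (CPM per kilobase), beside 3.82 FPKM for MTF1 and 5.32 FPKM for SLC30A1. Lengths take the exons of all annotated transcripts of a gene together, 1299 bases for MT2A. A shorter transcript would give a higher FPKM, so the order of these genes depends on the lengths used. On this scale the ranges of MT2A (1.33 to 4.41 FPKM) and MTF1 (2.41 to 6.82 FPKM) overlapped, as did those of MTF1 and SLC30A1 (2.91 to 7.92 FPKM).

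**Figure D1:**
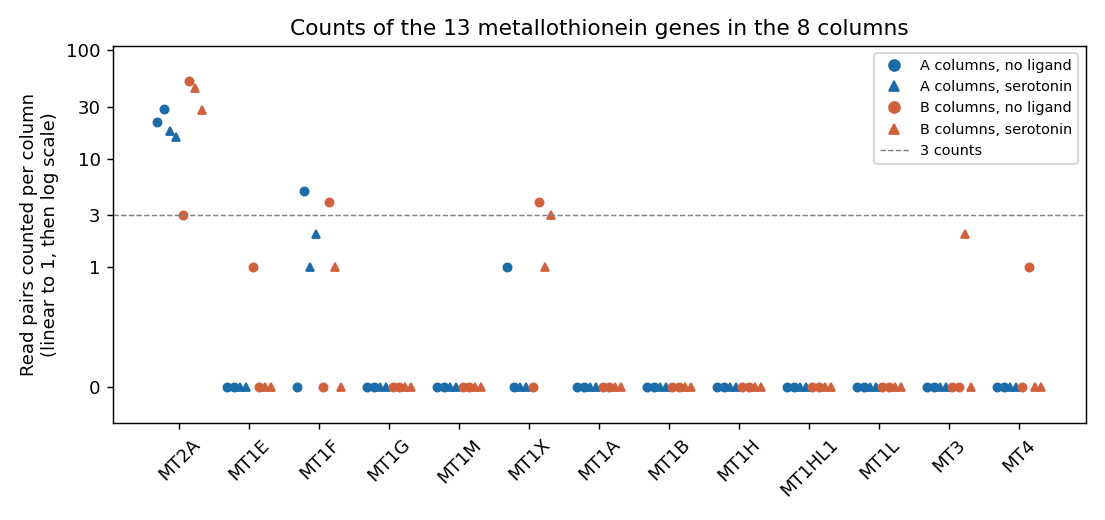
Read pairs counted for each of the 13 metallothionein genes in each of the 8 columns, on an axis that is linear to 1 and logarithmic above; blue points are A columns, red points B columns, circles no ligand and triangles serotonin. MT2A has 3 to 52 counts, while no other gene exceeds 5 counts in any column.

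Metallothionein genes resemble each other, and pairs that map to more than 1 place are not counted under the settings in the file header. In the transcripts of GENCODE 29, the share of a gene's 50-base words that also occur in a transcript of another gene, on either strand, was 3.02% for MT2A, 7.10% for MT1E, 1.22% for MT1F, 16.5% for MT1G, 9.87% for MT1M and 18.3% for MT1X. For SLC30A1 it was 0% and for MTF1 0.891%. Over all annotated transcripts of a gene together, most words of each metallothionein were therefore its own. The main spliced messenger RNA was not examined alone, so how much of it is shared was not measured. The study's read length is not given in the sources used here either, and counts of the MT1 genes are uncertain on both points. MT1X overlaps 1 other gene on its strand, which had 0 counts. MT1XP1, a pseudogene of MT1X that was singled out after its values were seen and is not among the 13 genes, had 0 and 1 counts in the pair of A columns without ligand and 0 and 0 after serotonin. Its counts in the pair of B columns were 0 and 3 without ligand, and 8 and 12 after serotonin.

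MT2A did not pass the test in any comparison, and its level after serotonin lay close to that without ligand in the A columns. In the pair of A columns it was 2.35 and 2.86 CPM without ligand (22 and 29 counts) and 2.23 and 2.67 CPM after serotonin (18 and 16 counts). These 4 values overlap. In the pair of B columns it was 1.73 and 5.72 CPM without ligand (3 and 52 counts) and 5.50 and 4.69 CPM after serotonin (45 and 28 counts). The value of 1.73 CPM rests on 3 counts, with an exact Poisson interval of 0.356 to 5.05 CPM, an interval that leaves out only the values of 5.72 and 5.50 CPM among the other columns. As in any bulk measurement, fewer expressing cells and less RNA per cell cannot be told apart.

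The log2 difference of MT2A between serotonin and no ligand was -0.094 ± 0.52 (SE) in the A columns and 0.24 ± 0.51 in the B columns, with 95% intervals of -1.24 to 1.06 and -0.88 to 1.36 (edgeR quasi-likelihood test, adjusted p = 1 and 0.789). The interval in A leaves room for a 2-fold difference in either direction, so a change of that size was not excluded. Over both letters the difference was 0.074 ± 0.37 (adjusted p = 0.944). Without the plain no-ligand B column the difference in B was -0.16, and over both letters -0.12. Without both columns of high mitochondrial share these were -0.070 and -0.086. The response in A minus that in B was -0.34 ± 0.73 (adjusted p = 0.837), and -0.032 without both columns.

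After serotonin, MT2A was lower in both A columns (2.23 and 2.67 CPM) than in both B columns (5.50 and 4.69 CPM). The log2 difference, A minus B, was -1.06 ± 0.52 (SE, 95% interval -2.19 to 0.07, adjusted p = 0.232 by edgeR), which did not pass the test. Without ligand it was -0.72 ± 0.52 (adjusted p = 0.471), with the A values of 2.35 and 2.86 CPM lying between the 2 B values. It was 0.63 without the no-ligand B column with R and -1.15 (adjusted p = 0.127) without both columns of high mitochondrial share.

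**Figure D2:**
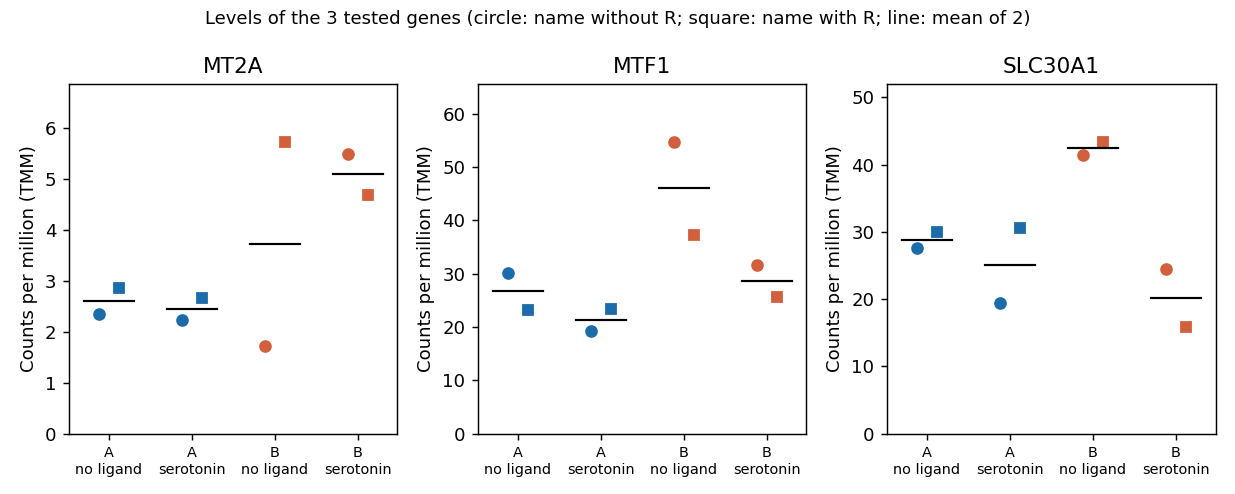
Level in CPM (vertical axis, after TMM scaling) of MT2A, MTF1 and SLC30A1 in A (blue) and B (red) columns without ligand and after serotonin; circles are columns named without R, squares those named with R, and lines the mean of the 2 columns. The 2 SLC30A1 values of the B columns after serotonin (24.5 and 15.9 CPM) lie below both values without ligand (41.5 and 43.4 CPM).

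MTF1, the zinc-sensing activator of these genes, was expressed in every column and was not called in any comparison. In the pair of A columns its level was 30.2 and 23.2 CPM without ligand and 19.3 and 23.4 CPM after serotonin. The value of the A serotonin column with R lies between the 2 no-ligand values, so these groups overlap. In the pair of B columns it was 54.7 and 37.3 CPM without ligand and 31.6 and 25.6 CPM after serotonin. Both serotonin values are below both no-ligand values, and the highest, 54.7 CPM, is that of the shallow B column.

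The log2 difference of MTF1 between serotonin and no ligand was -0.33 ± 0.29 (SE) in A and -0.66 ± 0.29 in B, with adjusted p of 1 and 0.178 by edgeR. Without both columns of high mitochondrial share the value in B was -0.25 (adjusted p = 0.775). The part of the mitochondrial share in this difference was not tested. Without the no-ligand B column with R alone it was -0.90 with an adjusted p of 0.0386, a fit in which the shallow column stands alone for its group and is assumed to vary like the others. Between letters, MTF1 without ligand was lower in A than in B, with both A values below both B values and a log2 difference of -0.76 ± 0.29 (adjusted p = 0.191). That comparison also passed the test only without the no-ligand B column with R (-0.99, adjusted p = 0.0290), and it was -0.50 (adjusted p = 0.234) without both columns of high mitochondrial share. After serotonin the difference was -0.43 ± 0.29 (adjusted p = 0.391).

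SLC30A1, which carries zinc out of the cell, had the widest separation between treatments of the 3 genes tested, in the B columns. In the pair of B columns its level was 41.5 and 43.4 CPM without ligand, and 24.5 and 15.9 CPM after serotonin. The values without ligand are close to each other and lie above both serotonin values. The log2 difference was -1.06 ± 0.31 (SE, 95% interval -1.74 to -0.39), a ratio of 0.478, and the adjusted p of 0.0854 by edgeR missed the threshold of 0.05. This interval uses a spread shared by all 4 combinations of letter and treatment. Over all tested genes, the B columns without ligand differed most between replicates. With DESeq2 the adjusted p was 0.0459 at -1.06. By edgeR it was 0.342 at -0.98 with total counts, and 0.218 at -1.05 with the 4 B columns alone. SLC30A1 in B stayed uncalled in 13 of the 16 alternatives. The difference was -0.99 without the no-ligand B column with R, and -0.78 without the serotonin B column with R. In the former fit the shallow column again stands alone for its group, with the spread taken from the other groups. Without the columns of high mitochondrial share, which leaves 1 column per treatment in B, the difference was -0.83 (adjusted p = 0.224).

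In the A columns SLC30A1 was 27.7 and 30.03 CPM without ligand and 19.4 and 30.6 CPM after serotonin. The highest and the lowest of these 4 values are both from serotonin columns. The log2 difference was -0.21 ± 0.30 (adjusted p = 1 by edgeR), with a 95% interval of -0.87 to 0.45. The fall was smaller in A (-0.21) than in B (-1.06). The response in A minus that in B was 0.85 ± 0.43 on the log2 scale (95% interval -0.09 to 1.80, adjusted p = 0.360 by edgeR), so the responses were not shown to differ.

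Without ligand SLC30A1 was lower in both A columns than in both B columns, by -0.56 ± 0.30 on the log2 scale (adjusted p = 0.337). After serotonin the order was the other way at 0.29 ± 0.31 (adjusted p = 0.586), with overlapping values, and it was 0.0086 without both columns of high mitochondrial share. Neither passed the edgeR test. With serotonin set against no ligand over both letters, SLC30A1 differed by -0.64 ± 0.22 and MTF1 by -0.49 ± 0.20 (adjusted p = 0.424 and 0.430). Without both columns these were -0.53 and -0.29 (adjusted p = 0.337 and 0.623).

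**Figure D3:**
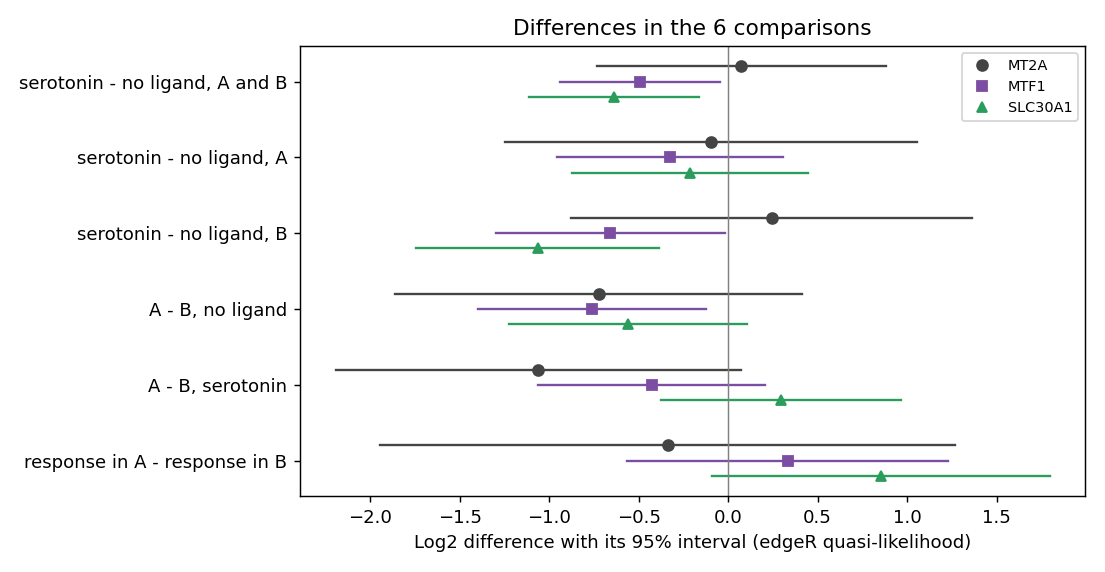
Log2 differences of MT2A (circles), MTF1 (squares) and SLC30A1 (triangles) with their 95% intervals from the edgeR fit, in the 6 comparisons named on the vertical axis. The interval of SLC30A1 for serotonin in the B columns, -1.74 to -0.39, does not reach 0, although its adjusted p of 0.0854 missed the threshold. All intervals use a spread shared by A and B columns, which may be too narrow for B.

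Counts over all 17144 genes tested give the background for these calls, in which 0 of 3 genes were higher and 0 lower in each of the 6 comparisons by edgeR. For serotonin over both letters 0.00583% of genes were called higher and 0% lower, in A 0% and 0%, and in B 0.0117% and 0%. For A minus B, 1.52% were higher and 0.904% lower without ligand, and 2.33% and 2.92% after serotonin. Scaling by total counts, which moved the median log2 difference of all genes from 0.03 to 0.36 without ligand and from 0.02 to 0.30 after serotonin, changed the share of calls in the higher direction from 62.7% to 81.1% and from 44.4% to 67.1%. For the difference between the responses 0% were called in either direction by edgeR.

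By an unadjusted p under 0.05 in the edgeR fit, more of all genes passed. The shares were 11.1% for serotonin over both letters, 0.362% in A (62 genes) and 26.5% in B. They were 19.2% for A minus B without ligand, 24.3% after serotonin and 15% (2564 genes) for the difference between responses. DESeq2 called 0.0777%, 0%, 10.8%, 5.21%, 8.84% and 0.483% (70 genes) of the genes to which it gave an adjusted p in these comparisons, in the same order. Of the 3 genes tested, 2 (MTF1 and SLC30A1) were under an unadjusted 0.05 for serotonin over both letters and in B, and 1 (MTF1) for A minus B without ligand. DESeq2 called 1 of the 3, SLC30A1 in B, where it called 10.8% of all genes, and 0 elsewhere. With few calls among all genes, a count of 0 among 3 says little about these genes in particular. The unadjusted share in A is below the 5% that would pass with no differences and a correct spread. Whether the shared spread is too wide for A was not tested.

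The other genes of zinc and copper handling gave no call by edgeR either. Of the 9 other genes of the SLC30 family, listed here as zinc exporters, 7 were tested. Of the 14 genes of the SLC39 family, listed as importers, 12 were tested. In each of the 6 comparisons 0 of the 7 and 0 of the 12 were higher and 0 lower. Unadjusted p values under 0.05 were reached for serotonin in B by 3 of the 7 exporters and 5 of the 12 importers, beside 26.5% of all genes, and in A by 0 and 0, beside 0.362% of all genes. DESeq2 called 1 exporter and 3 importers in B, beside 10.8% of all genes. For serotonin in B the median log2 difference was -0.57 over the exporters and -0.26 over the importers, beside 0.01 over all genes. In A the medians were -0.07 and -0.12, beside -0.02 over all genes.

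Between letters, the importers had a median log2 difference, A minus B, of 0.49 without ligand and 0.53 after serotonin, and the exporters -0.01 and 0.65, beside 0.03 and 0.02 over all genes. SLC30A5, an exporter that moves zinc into the early secretory pathway, came nearest to a call by edgeR, at 1.02 ± 0.27 after serotonin (adjusted p = 0.0513). In that comparison 4 of the 7 exporters and 5 of the 12 importers were under an unadjusted 0.05, beside 24.3% of all genes. DESeq2 called 1 exporter and 0 importers there, beside 8.84% of all genes. Without ligand it called 0 and 0, beside 5.21%. Among 10 genes of copper transport and delivery, such as the importer SLC31A1 and the pumps ATP7A and ATP7B, 9 were tested, with 0 calls in either direction by edgeR. DESeq2 called 4 of them for serotonin in B, 1 for A minus B without ligand and 2 after serotonin, beside 10.8%, 5.21% and 8.84% of all genes. The enzymes of glutathione synthesis and recycling, GCLC, GCLM, GSS and GSR, with the heme oxygenase HMOX1, had 0 of 5 called by edgeR and by DESeq2 in every comparison.

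Genes induced by glucocorticoids were listed because steroid also raises metallothionein RNA. Of the 8, all tested, 1 was lower in A than in B after serotonin, and 0 were called elsewhere. The called gene was TSC22D3, which encodes the leucine zipper protein GILZ. Its level in the pair of A columns was 35.9 and 34.5 CPM without ligand and 46.3 and 30.7 CPM after serotonin. The pair of B columns had 32.8 and 74.4 CPM without ligand and 108 and 98.8 CPM after serotonin. Both B values after serotonin lie above every A value, and the log2 difference was -1.42 ± 0.36 (SE, adjusted p = 0.0483 by edgeR). The call was lost when any one column was left out except the 2 no-ligand B columns, with an adjusted p of up to 0.410, and under scaling by total counts (adjusted p = 0.256). It held with DESeq2 (-1.45, adjusted p = 0.00499). Without both columns of high mitochondrial share, which leaves 1 column per treatment in B, the difference was -1.49. The median of the list in that comparison was -0.07, beside 0.02 over all genes.

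**Figure D4:**
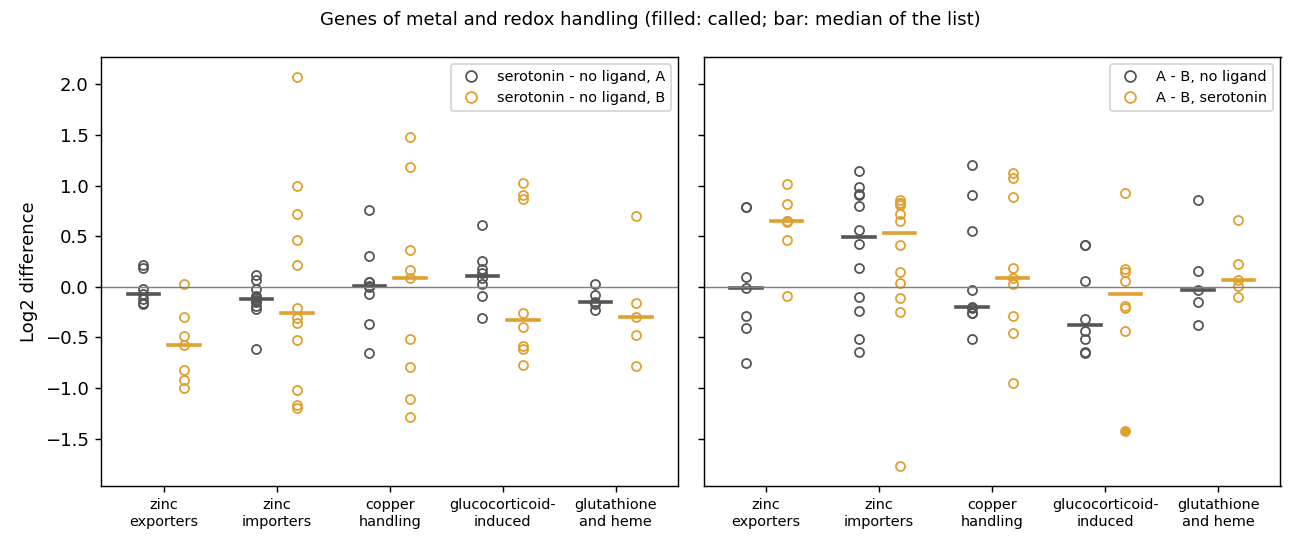
Log2 differences of the tested genes of each list (points) with the list's median (bars), for serotonin against no ligand in A and in B (left) and for A minus B without ligand and after serotonin (right); filled points passed the edgeR test. The only filled point is TSC22D3 at -1.42 for A minus B after serotonin.

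The gene of the 8 with the highest mean level, MTF1 at 30.7 CPM, was compared by profile with the 10266 tested genes of at least 10 CPM. Likeness was the mean absolute difference of log2 CPM over the 8 columns, each profile being centred on its own mean. The closest were SDAD1 (0.09), IKZF5 (0.09), DDI2 (0.10), SERTAD2 (0.11) and WBP11 (0.11), where the median over these genes was 0.45. The profiles share libraries and the high value of the shallow B column. SLC30A1 was not among the 5, and MT2A, below 10 CPM, was not compared.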

How the data were processed

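The authors deposited raw counts of read pairs per gene, made with featureCounts 2.0.1 on a GENCODE 28 annotation, reverse-stranded and on duplicate-marked alignments, per the file headers. The submitters' processing notes name cutadapt 3.4, STAR 2.7.8a, SAMtools 1.12 and build hg38. Gene lengths in the deposited table are bases of exon, used for FPKM only. Columns were placed in a treatment group by the word in their name and split by the first letter of the rest, and 0 columns were left out. Genes were named by matching IDs to a table of symbols (57754 of 58440 matched).

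Counts were normalised by TMM, filtered with filterByExpr (minimum count 10) and fitted with edgeR 4.0.16 (quasi-likelihood, R 4.3.3) over 4 combinations of letter and treatment of 2 columns each. Benjamini-Hochberg adjustment ran over all genes tested, with calls under 0.05. Standard errors are the log2 difference over the root of F, and intervals are at 95%. They rest on a spread per gene that all 4 combinations share. Over genes, the standard deviation of the log2 ratio of the R to the plain column differed. It was 0.34 in A without ligand, 0.55 in A after serotonin, 1.01 in B without ligand and 0.61 in B after serotonin. Intervals may therefore be too narrow in B and too wide in A, which was not tested. CPM of a column uses TMM library sizes, and limits for 0 counts use plain totals. DESeq2 1.42.0, DESeq2 size factors, total counts, no filter, the 4 columns compared alone, blocks by the trailing R, and leaving out columns were the alternatives. The fit was tried on simulated counts with the same spread in every column, unlike the real replicates, so it does not cover their unequal spread. The genes and lists were chosen with earlier results of these data known. Named genes are the 8, called genes of the lists (at most 5 per list and comparison), and the 5 closest profiles. SLC30A5 and MT1XP1 were named after their values were seen. The lists were other metallothioneins, zinc exporters, zinc importers, copper handling, glucocorticoid-induced genes, and glutathione synthesis and heme breakdown.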

Additional observations from a re-analysis of the deposited data

Results flagged for a closer look

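MT1E in the no-ligand columns had 1 column apart from the rest: the ratio of its gap to the range was 1, because the plain B column had 1 count (0.576 CPM) and the other 3 had 0. A single count is below the limit of 3 counts. With the other 3 columns at 0, any count gives a ratio of 1, so the ratio does not measure how far apart this column is.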

How the results depend on the processing

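The MT1 genes, at 0 to 13 counts in all, did not pass the filter on low counts, and the lowest MT2A column holds 3 counts. The counts of genes called depended on the processing. For serotonin over both letters, 1 gene in the reported fit became 0 with total counts, 11 with DESeq2, 227 with no filter on low counts, 0 with the replicate block shared by both letters, 27 with the replicate block within each letter and 7 without the 2 columns of high mitochondrial share. For serotonin in B, 2 became 0 with total counts, 1599 with DESeq2, 1830 with no filter, 9 with the 4 columns alone, 2218 with the replicate block within each letter and 84 without the 2 columns. For A minus B without ligand, 415 became 841 with DESeq2, 1117 with no filter, 15 with the 4 columns alone, 268 with the shared replicate block and 1542 without the 2 columns. For A minus B after serotonin, 900 became 340 with total counts, 1515 with DESeq2, 1985 with no filter, 2312 with the 4 columns alone, 480 with the shared replicate block and 1850 without the 2 columns. For the difference between responses, 0 became 70 with DESeq2, 570 with no filter, 250 with the replicate block within each letter and 7 without the 2 columns. The cause was not tested. Leaving out 1 column gave 0 to 1650 calls for serotonin over both letters, 0 to 4846 in B, 60 to 3693 for A minus B without ligand, 83 to 3347 after serotonin and 0 to 3482 for the difference between responses, the highest each time without the no-ligand B column with R, which leaves the shallow B column alone in its group. For A minus B after serotonin, nearly as many genes were called when the shallow B column itself was left out. Whether its standing alone raised the calls in any comparison was not tested. Serotonin in A gave 0 calls under all 16 alternatives, which does not show that there was no response in A.

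With the replicate block within each letter, SLC30A1 in B was at -1.11 with an adjusted p of 0.0302. The labels do not say what the trailing R stands for. Correlations of the differences between R and plain columns ran from -0.49 to 0.15 over pairs of groups, with 0.15 between the B groups, so R was not treated as a pairing.

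Directions turned in some fits of genes that were not called. For MT2A, leaving out 1 column gave -0.12 to 0.74 for serotonin over both letters, -0.24 to 0.047 in A, -0.16 to 1.59 in B, -1.18 to 0.63 for A minus B without ligand, and -1.69 to 0.087 for the difference between responses. Without the 2 columns, a choice made after seeing the data, MT2A was at -0.086 for serotonin over both letters and -0.070 in B, and MTF1 at -0.081 for the difference between responses. Leaving out 1 column gave -0.57 to 0.062 for SLC30A1 with serotonin in A and -0.054 to 0.62 for A minus B after serotonin. TSC22D3 kept its direction in all 15 alternatives and lost the call in 8, among them the shared replicate block (adjusted p = 0.0827).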
